A study of Homo sapiens with 8 samples.

Results

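The GATA and HAND genes considered here are 7 transcription factor genes: GATA2, GATA3, GATA4, GATA5 and GATA6 of the GATA family, and HAND1 and HAND2 of the basic helix-loop-helix family. They were chosen by name, and their H3K27me3 was read from the deposited peaks within 5 kb and within 50 kb of a start position given to the nearest 1 kb on GRCh37. The lists held 44 peaks within 50 kb of these starts of 104913 in DMSO 1, 50 of 104517 in AC220 1, 34 of 117350 in DMSO 2 and 41 of 139465 in AC220 2, counted on chromosomes 1 to 22 and X. Of the 7 genes, 6 had a peak within 5 kb in all 4 libraries, and HAND2 had none within 50 kb in any.

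The cells were MOLM14, an established human acute myeloid leukaemia line that carries an internal tandem duplication in the receptor tyrosine kinase gene FLT3. One arm received quizartinib (AC220), an inhibitor of that kinase, and the other its vehicle DMSO, each for 24 h. Chromatin was immunoprecipitated for H3K27me3 from 2 libraries of each treatment, numbered 1 and 2, after Drosophila S2 cells had been added to all of them. The 4 matching inputs were not used here. All libraries come from 1 cell line in culture, and the peak lists hold no expression values, so the labelled cell type was not checked against markers.

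H3K27me3, trimethylation of lysine 27 of histone H3, is deposited by the Polycomb complex PRC2 and marks genes that are kept silent. Genes of developmental transcription factors are typical Polycomb targets, often within broad domains that span the gene and its flanks, and their promoters are usually rich in CG dinucleotides. GATA factors bind DNA through zinc fingers. GATA2 acts in blood stem and progenitor cells, GATA3 in T cells and several epithelia, and GATA4, GATA5 and GATA6 in heart, gut and other tissues of mesodermal and endodermal origin. HAND1 and HAND2 act in heart, and HAND2 also in limb and sympathetic neurons. GATA2 is therefore the member best known from the blood lineage to which the cell line belongs.

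Promoters are shown for 4 members: GATA2 and GATA6, whose H3K27me3 peaks had an edge near the start, and HAND1 and HAND2, related genes of which the first carried peaks and the second none. Each sequence is the 250 bases upstream of a RefSeq start on GRCh38.p14, written 5′ to 3′ on the strand of the gene, with CG dinucleotides in capitals. The RefSeq promoter table holds 2 starts for GATA2 and 6 for GATA3 (described below), and 1 was taken for each. They lie at chr3:128493202-128493451 (minus strand) for GATA2, chr18:22169339-22169588 (plus strand) for GATA6, chr5:154478228-154478477 (minus strand) for HAND1 and chr4:173530230-173530479 (minus strand) for HAND2.
GATA2: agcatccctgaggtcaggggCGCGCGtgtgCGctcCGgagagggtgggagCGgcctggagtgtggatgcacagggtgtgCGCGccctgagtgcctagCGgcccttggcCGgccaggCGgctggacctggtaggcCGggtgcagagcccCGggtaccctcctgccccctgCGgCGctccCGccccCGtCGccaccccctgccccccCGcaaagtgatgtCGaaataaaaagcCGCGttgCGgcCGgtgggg
GATA6: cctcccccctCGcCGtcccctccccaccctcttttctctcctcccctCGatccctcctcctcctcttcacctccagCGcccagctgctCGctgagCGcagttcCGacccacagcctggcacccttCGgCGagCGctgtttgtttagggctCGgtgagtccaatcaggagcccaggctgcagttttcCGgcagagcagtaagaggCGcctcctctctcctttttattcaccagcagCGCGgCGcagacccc
HAND1: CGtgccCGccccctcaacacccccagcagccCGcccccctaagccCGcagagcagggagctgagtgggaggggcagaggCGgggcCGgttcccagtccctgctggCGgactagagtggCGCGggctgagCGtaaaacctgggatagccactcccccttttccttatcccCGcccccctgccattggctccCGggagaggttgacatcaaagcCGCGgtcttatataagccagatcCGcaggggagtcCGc
HAND2: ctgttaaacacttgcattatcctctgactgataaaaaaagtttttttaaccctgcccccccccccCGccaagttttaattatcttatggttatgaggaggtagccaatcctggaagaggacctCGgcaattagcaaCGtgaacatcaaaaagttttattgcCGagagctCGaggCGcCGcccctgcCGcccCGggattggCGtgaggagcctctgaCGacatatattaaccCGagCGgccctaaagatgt

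The GATA2 sequence held 24 CG dinucleotides, GATA6 and HAND1 held 16 each, HAND2 held 13 and GATA3 (not printed) held 11, against a median of 11 over 35116 RefSeq promoters of the same length. HAND2, the member without peaks, had the lowest GC content of these 5, at 49.6%, but the highest ratio of observed to expected CG, at 0.853. A ratio at least as high was found in 24% of all promoters. The ratio was 0.726 in GATA2, 0.699 in GATA6, 0.571 in HAND1 and 0.48 in GATA3, against a median of 0.558 over all promoters. A GATA box (either AGATAA or AGATAG or TGATAA or TGATAG, on both strands) was matched at 2 positions in HAND2 and in none of the other 4 sequences, and 22.3% of all promoters held one. An E-box (CANNTG, on both strands), the letters bound by basic helix-loop-helix factors, was matched once in GATA6 and once in HAND2, and 61.8% of all promoters held one. These matches describe the letters only.

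The libraries numbered 2 covered far more of the genome than those numbered 1, so values are given within each number throughout. Peaks covered 231.6 Mb in DMSO 1, 191.9 Mb in AC220 1, 590.1 Mb in DMSO 2 and 496.3 Mb in AC220 2. Covered length was therefore 2.55 times as high in number 2 as in number 1 with DMSO and 2.59 times with AC220, and it was lower with AC220 by 17.2% in number 1 and by 15.9% in number 2. The lists give positions and scores within a library, so read depth is unknown and no level of the mark per cell can be read from them. How much of any difference at these genes comes from list length was not tested beyond the trimmed lists described below.

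Around the starts, GATA4 and HAND1 were covered over the whole 10 kb window in all 4 libraries (the covered share is the percentage of a window's bases inside any peak of a library). GATA3 followed, with 99.93% in DMSO 1, 87.73% in AC220 1 and 100% in both libraries numbered 2. GATA5 had 80.3% in DMSO 1 and 100% in the other 3 libraries. GATA2 and GATA6 were covered in part. GATA2 had 49.28% in DMSO 1, 62.01% in AC220 1, 94.14% in DMSO 2 and 93.59% in AC220 2, so both libraries numbered 2 lay above both numbered 1. GATA6 had 51.33%, 51.18%, 73.86% and 69.66% in the same order. HAND2 had 0% in each of the 4. In all, 5 of the 7 genes were covered over at least 50% of this window in every library, a state found in 3.39% of all 10 kb tiles of chromosomes 1 to 22 and X. GATA2 in DMSO 1 and GATA6 in both libraries numbered 1 lay close to this limit. With starts taken 1 kb lower the number of genes was 6, and with starts 1 kb higher it was 4. The starts are given only to the nearest 1 kb. Of all 10 kb tiles, 58.8% had no peak in any library, as at HAND2. Tiles where reads cannot be placed were not left out of these shares. These genes were picked as developmental regulators, so the first count describes them and is no test.

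**Figure D1:**
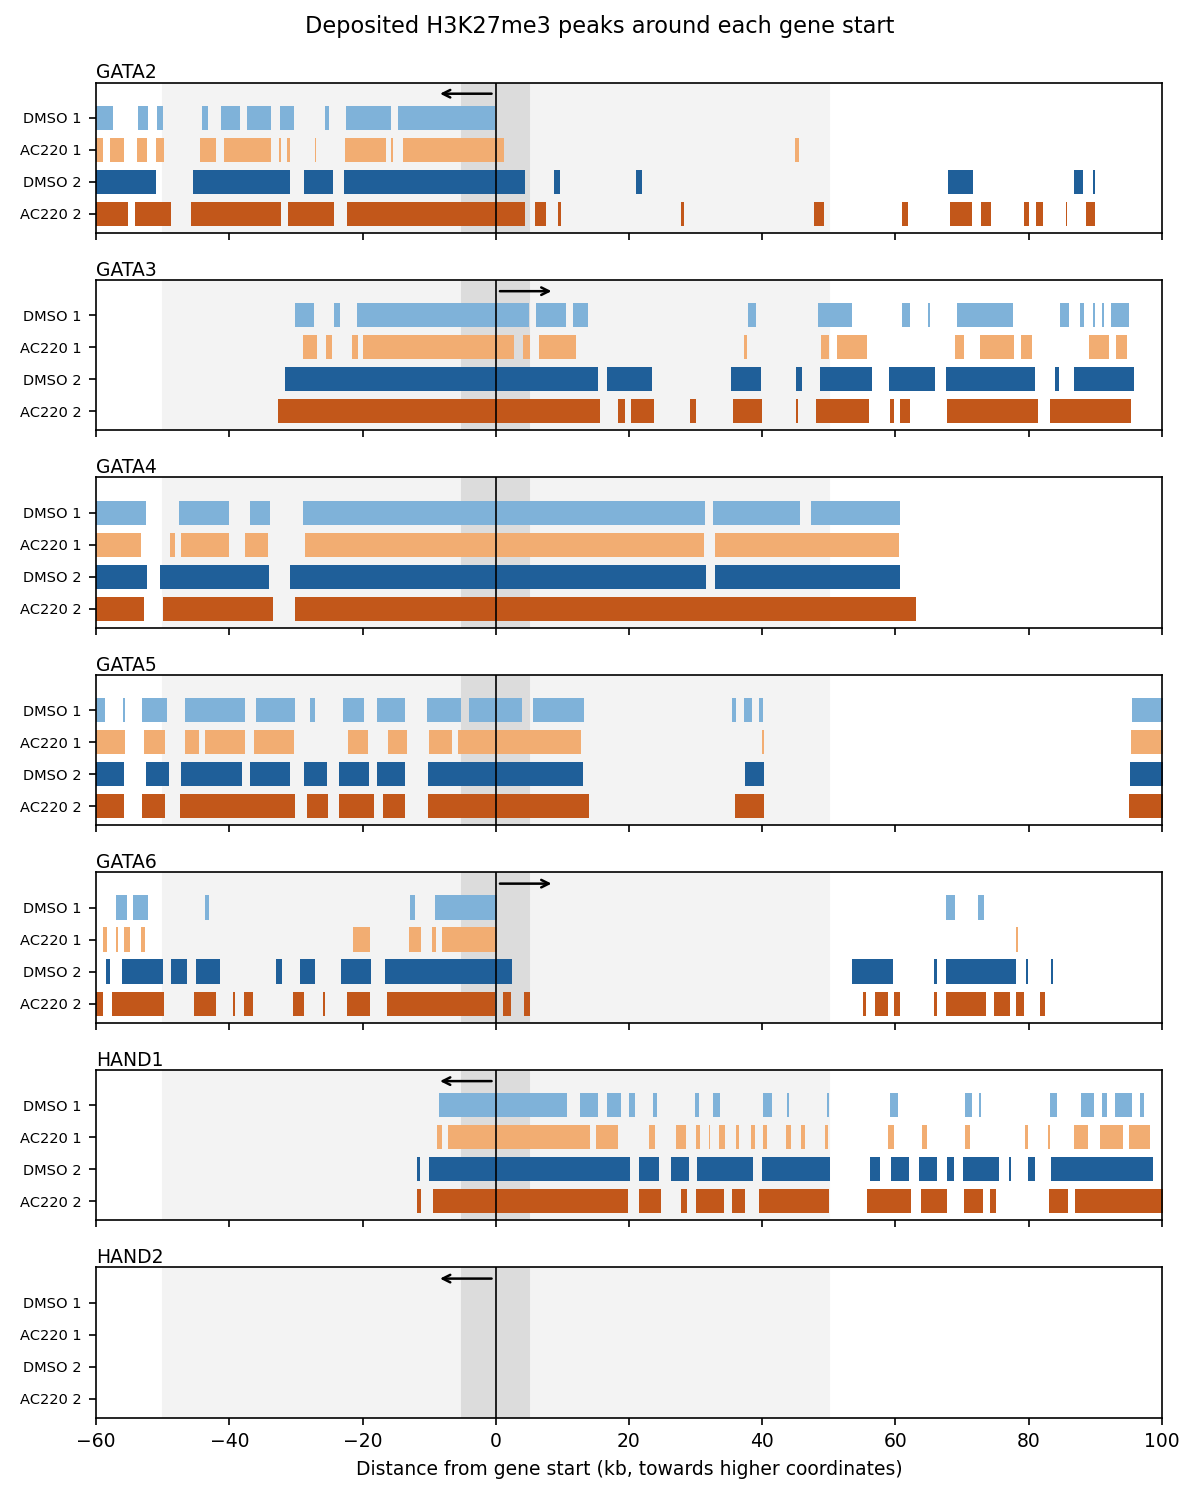
Deposited H3K27me3 peaks of the 4 libraries (rows) around the start of each gene (vertical line), by distance in kb towards higher coordinates. Shading marks the windows of 5 kb and 50 kb to either side, and an arrow gives the direction of transcription where the RefSeq promoter table holds the gene. GATA4 is covered almost throughout, the GATA2 and GATA6 peaks stop near the start in the libraries numbered 1, and HAND2 has no peak in any row.

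GATA4, a regulator of heart and gut endoderm, had the broadest mark. Within 50 kb of its start the covered share was 86.78% in DMSO 1, 88.38% in AC220 1, 95.52% in DMSO 2 and 96.56% in AC220 2. Of all 100 kb tiles, 0.0461%, 0.0231%, 0.481% and 0.119% were covered at least as far in these libraries. Peaks of a library were joined into domains across gaps of at most 3 kb, and the widest domain reaching within 5 kb of a start was taken for each gene. The GATA4 domain was 89.6 kb wide in DMSO 1, 89.1 kb in AC220 1, 91.6 kb in DMSO 2 and 93.2 kb in AC220 2. It ranked 62nd of 57446 domains by width in DMSO 1 and 733rd of 66155 in DMSO 2. It kept nearly the same ends in every library: its lower edge lay between -30.9 and -28.6 kb and its higher edge between 60.5 and 63.1 kb. AC220 2 held this domain as a single peak at chr8:11531932-11625133, whereas it was broken in the other 3 libraries. The nearest coding genes in the RefSeq table are BLK, a B cell kinase gene, on the lower side and NEIL2, a DNA repair gene, on the higher side.

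HAND1, a factor of heart and trophoblast, carried the peaks of highest fold enrichment among these genes in each list. The peak at its start had a deposited fold enrichment of 4.55 in DMSO 1, 4.2 in AC220 1, 4.82 in DMSO 2 and 4.16 in AC220 2; these folds, like all those given here, are the authors' values. They stood at percentile 99.9 or above of the folds in each of their lists. In DMSO 1 this peak spanned chr5:153849505-153868665, 19.2 kb. Within 50 kb the covered share was 29.08% in DMSO 1, 32.69% in AC220 1, 54.88% in DMSO 2 and 50.95% in AC220 2. Coverage was lopsided. HAND1 is transcribed towards lower coordinates, and of the 50 kb upstream of its start 41.16%, 49.53%, 88.75% and 81.87% lay in peaks, against 16.99%, 15.86%, 21.01% and 20.02% of the 50 kb on the gene side. The lower edge of the domain lay between -11.9 and -8.5 kb, and the nearest coding gene on that side is SAP30L, which encodes a protein of a histone deacetylase complex.

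HAND2 differed from HAND1 in having no listed peak over a long distance on either side. The nearest peak below its start was 459 kb away in DMSO 1, 446 kb in AC220 1 and 116 kb in both libraries numbered 2. The nearest peak above it was at least 829 kb away in all 4. The stretch without peaks around HAND2 thus measured 1295 kb in DMSO 1, 1285 kb in AC220 1, 945.7 kb in DMSO 2 and 947.8 kb in AC220 2. Stretches at least as long numbered 141 in DMSO 2, making up 9.8% of the genome, and 183 in AC220 1, making up 17.7%. Of all 100 kb tiles, 31.8% had no peak in any library. Stretches where reads cannot be placed were not left out of these shares, which may therefore be too high. Whether reads can be placed around HAND2 as well as elsewhere was not tested. The lists do not tell an unmarked gene from one whose mark was not called.

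GATA3, a master regulator of T helper cells, lay well inside its domain. Within 50 kb its covered share was 39.09% in DMSO 1, 34.72% in AC220 1, 60.51% in DMSO 2 and 60.25% in AC220 2. The domain was 38.2, 33.6, 55 and 56.5 kb wide in the same order. It reached at least 21.5 kb to the lower side and 12.1 kb to the higher side of the start in every library. The peak at the start stood at percentile 99.8 of fold in each of the 4 lists. GATA3 is transcribed towards higher coordinates, and the 10 kb upstream of its start were wholly covered in all 4 libraries, while the first 10 kb of the gene side were covered over 89.91% in DMSO 1 and 74.63% in AC220 1 and wholly in number 2. The RefSeq table places the antisense gene GATA3-AS1 over GATA3, so a peak there cannot be assigned to 1 of them.

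GATA5, a factor of heart and gut development, had, like GATA4, a domain of nearly the same width in every library. Its width was 23.5 kb in DMSO 1, 22.9 kb in AC220 1, 23.2 kb in DMSO 2 and 24.3 kb in AC220 2, with the lower edge between -10.3 and -10.1 kb and the higher edge between 12.9 and 14.1 kb. In DMSO the log2 ratio of width in number 2 to number 1 was -0.017 for GATA5 and 0.031 for GATA4, against 0.528 for GATA3, 0.927 for HAND1, 0.964 for GATA2 and 0.984 for GATA6. With AC220 this ratio was 0.083 for GATA5, 0.064 for GATA4, 0.75 for GATA3, 1.188 for HAND1, 1.221 for GATA2 and 1.058 for GATA6. With gaps of at most 3 kb joined, the domains of GATA4 and GATA5 thus had nearly the same edges in short and long lists. Those of the other 4 were wider in number 2 under both treatments. The lower edges of GATA4 and GATA5 depend on this limit, since the next peak lay only slightly beyond it in number 2. That peak ended 34 kb below the GATA4 start in DMSO 2 and 33.5 kb in AC220 2, and 13.6 kb below the GATA5 start in both. Unjoined, the widest peak at the GATA5 start measured 8.03 kb in DMSO 1 and 23.2 kb in DMSO 2. Further peaks lay below the GATA5 domain, and within 50 kb the covered share was 46.7% in DMSO 1, 42.74% in AC220 1, 54.09% in DMSO 2 and 57.79% in AC220 2.

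Within 50 kb of the start, GATA6, which acts in endoderm and heart, had the least coverage of the 6 genes with peaks. Its share there was 10.58% in DMSO 1, 13.03% in AC220 1, 32.74% in DMSO 2 and 29.16% in AC220 2. The peaks lay upstream of the gene and stopped near its start. Of the 10 kb upstream, 91.91% were covered in DMSO 1, 86.19% in AC220 1, 100% in DMSO 2 and 98.69% in AC220 2. On the gene side the same distance was covered over 1.33%, 1.18%, 23.86% and 21.82%, so the upstream side was above the gene side in each library. The peak at the start ended at chr18:19749133 in DMSO 1 and at chr18:19749118 in AC220 1, within the 1 kb to which the start is given. In DMSO 2 it ended 2.39 kb on the gene side of the given start position. In AC220 2 it ended 0.131 kb from that position, again within the 1 kb, and a further peak began 1.03 kb on the gene side. These distances share the 1 kb limit of the start. The upstream side also holds the antisense gene GATA6-AS1, the nearest RefSeq gene on that side.

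GATA2 showed the opposite arrangement. It is transcribed towards lower coordinates, and the 10 kb on its gene side were covered over 99.28% in DMSO 1 and wholly in the other 3 libraries. Of the 10 kb upstream, 0% were covered in DMSO 1, 12.01% in AC220 1, 54.35% in DMSO 2 and 64.55% in AC220 2. In DMSO 1 the peak spanned chr3:128197346-128211928, ending within the 1 kb to which the start is given, and the next peak above it was 439 kb away. In AC220 1 it spanned chr3:128198049-128213201. The libraries numbered 2 carried it further upstream, to chr3:128216414 in DMSO 2 and chr3:128216359 in AC220 2. Over 50 kb, the gene side held 62.46%, 62.13%, 83.69% and 88.15% and the upstream side 0%, 3.678%, 12.6% and 16.73%, in the order DMSO 1, AC220 1, DMSO 2 and AC220 2. Whether the transcript of GATA2 is present in these cells was not measured, and the antisense gene GATA2-AS1 overlaps the locus. All these values hold for the start used, and coverage at the other RefSeq start of GATA2 was not examined.

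Set against the other 6 genes, GATA2 was under their median in both windows and in all 4 libraries, and in the libraries numbered 1 it was further under near the start than over the wider window. Within 5 kb its share minus the median share of the others was -40.8 percentage points for DMSO 1, -31.9 for AC220 1, -5.86 for DMSO 2 and -6.41 for AC220 2. It ranked 6th of 7 in DMSO 1 and 5th in the other 3 libraries, with HAND2 below it in all 4 and GATA6 below it in 3. Within 50 kb it had 31.23% in DMSO 1, 32.91% in AC220 1, 48.14% in DMSO 2 and 52.44% in AC220 2, which differed from the median of the others by -2.85, -0.8, -6.34 and -1.93 points and ranked 4th or 5th of 7. The deposited fold of its peak stood at percentiles 96.3, 96.2, 98.9 and 98.7 of its lists. This was the lowest percentile among the 6 genes with peaks, except in DMSO 2, where GATA5 stood at 97.7. GATA2 is 1 gene, so these are levels and no test was made.

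**Figure D2:**
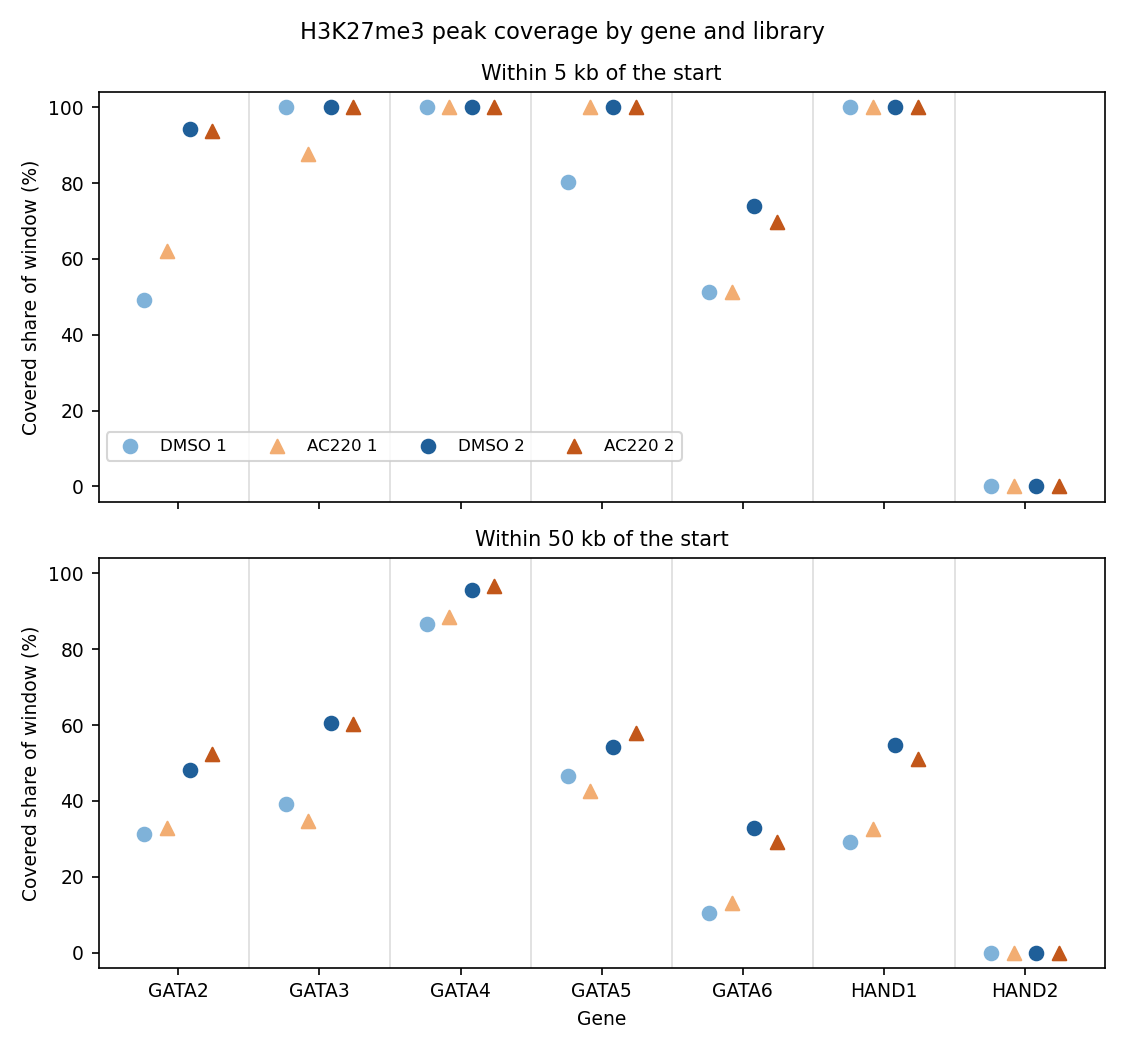
Covered share of the window within 5 kb (upper panel) and 50 kb (lower panel) of each start, in %, with 1 point per library (circles DMSO, triangles AC220, light number 1, dark number 2). Within 5 kb GATA4 and HAND1 are at 100% in all 4 libraries, and within 50 kb the dark points lie above the light ones for the 6 genes with peaks.

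Ordered by covered share within 50 kb, GATA4 was highest and HAND2 lowest in all 4 libraries, and GATA6 was 6th. The 4 genes between them, GATA2, GATA3, GATA5 and HAND1, ran from 29.08% to 46.7% for DMSO 1, from 32.69% to 42.74% for AC220 1, from 48.14% to 60.51% for DMSO 2, and from 50.95% to 60.25% for AC220 2. Their order was GATA5, GATA3, GATA2 and HAND1 in both libraries numbered 1 and differed from this in DMSO 2 and in AC220 2, and their ranges over the libraries overlapped. The range of GATA6, 10.58% to 32.74%, overlapped those of GATA2 and HAND1 but not those of GATA3 and GATA5, and GATA6 was below all 4 within each library. GATA4 was above the highest value of any other gene in all 4 libraries.

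Around the genes with peaks, the share of covered bases common to all libraries differed from gene to gene. Of the 700 kb within 50 kb of the 7 starts, 373 kb lay in a peak of at least 1 library and 213 kb in all 4, which is 57.1%; over the genome that share was 19%. It was 87.4% at GATA4, which supplied 85.2 of the 213 kb, and 61.5% at GATA5. At the other 4 it was below 50%, with 48.7% at GATA3, 48.3% at GATA2, 41% at HAND1 and 23.4% at GATA6. Bases with a peak in DMSO 1 and DMSO 2 but in no AC220 list came to 2.18 kb, or 0.585%, against 1.76% over the genome, and lay mostly at GATA5 (1.19 kb) and GATA2 (0.875 kb). Bases covered only in both AC220 libraries came to 0.274 kb, or 0.0735%, against 0.522%. By contrast, 60.3 kb were covered only in both libraries numbered 2, which is 16.2%, against 25.9% over the genome. Differences between numbers thus took up more of these loci than differences between treatments.

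The comparison of AC220 with DMSO asks whether blocking FLT3 altered H3K27me3 at these genes. Within 50 kb, 2 genes were higher with AC220 in both numbers, 1 was lower in both, 3 went in opposite directions and HAND2 had no peak. GATA2 was higher by 1.67 percentage points in number 1 and 4.29 in number 2, with means of 39.69% ± 11.96 for DMSO and 42.67% ± 13.81 for AC220 (SD, n = 2 each, exact permutation p = 0.667, two-sided). GATA4 was higher by 1.6 and 1.04 points (91.15% ± 6.176 against 92.47% ± 5.782, SD, n = 2 each, exact permutation p = 0.667). GATA3 was lower, with differences of -4.38 and -0.255 points (49.8% ± 15.14 against 47.48% ± 18.06, SD, n = 2 each, exact permutation p = 0.667). The 2 treatments overlapped at each of these 3 genes, and each mean difference was smaller than the SD within either treatment. Each treatment holds 1 library of each number, so this SD restates the gap between numbers. The overlap and the p-values carry the same gap, so they cannot tell whether the differences within the numbers exceed the spread of like libraries. With 2 libraries against 2, the smallest p this test can give is 0.33, so no single gene could pass a threshold of 0.05.

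The other 3 genes with peaks had differences of opposite sign in the pairs. The difference was -3.96 points in number 1 and 3.7 in number 2 at GATA5, 2.44 and -3.58 at GATA6, and 3.62 and -3.93 at HAND1. Their means differed by -0.13, -0.57 and -0.158 points (AC220 minus DMSO), each with an exact permutation p of 1. For comparison, the gap between number 2 and number 1 with DMSO was 16.9 points at GATA2, 21.4 at GATA3, 8.73 at GATA4, 7.39 at GATA5, 22.2 at GATA6 and 25.8 at HAND1. It exceeded the difference with AC220 in either pair at every one of the 6 genes.

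**Figure D3:**
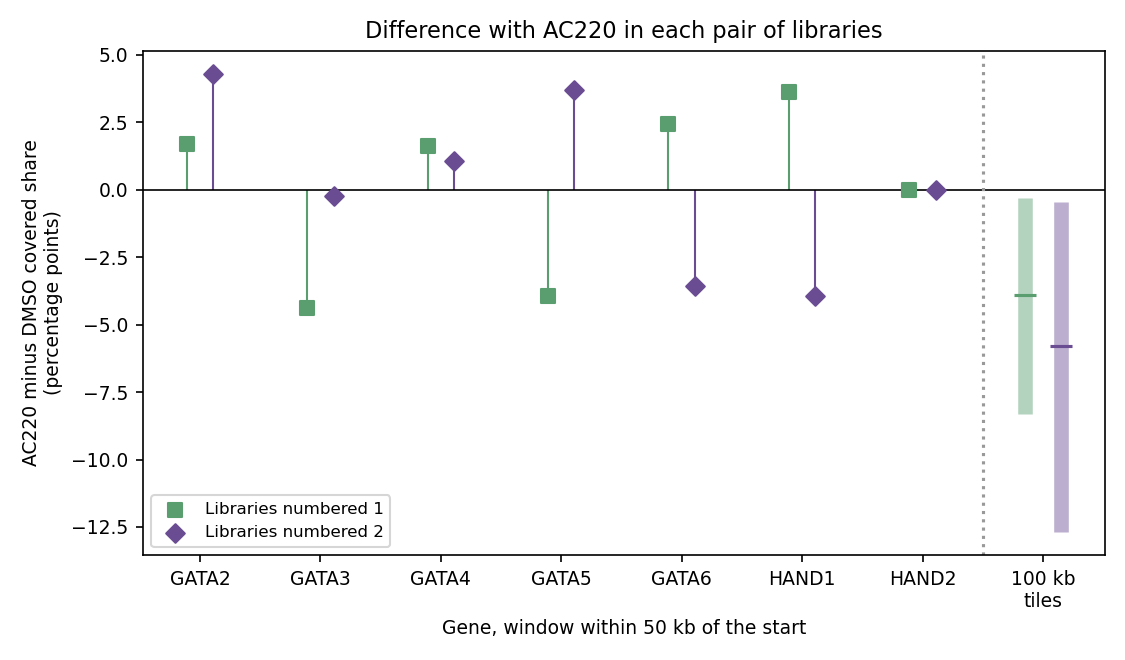
AC220 minus DMSO covered share within 50 kb of each start, in percentage points, for libraries numbered 1 (squares) and 2 (diamonds). At the right, bars give the middle 50% and lines the median of 100 kb tiles with a mean share of at least 20%, at -3.91 and -5.78 points. GATA2 and GATA4 lie above 0 in both pairs and GATA3 below 0 in both.

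Over the genome most windows were lower with AC220. By the mean of 2 libraries, 4 of the 7 genes, or 4 of the 6 with a peak, were lower within 50 kb, against 74.3% of 20713 tiles of 100 kb with any peak and 80% of 7238 tiles with a mean share of at least 20%, a limit chosen after the data had been seen. Lower in both numbers was 1 gene, against 43.9% of tiles with any peak and 63.6% of the tiles at 20% or more. Higher in both numbers were 2 genes, against 9.68% of the tiles at 20% or more. The median difference over the 7 genes was -0.13 points, beside -1.65 over tiles with any peak and -5.33 over the tiles at 20% or more. Within the numbers the gene median was 1.6 in number 1 and 0 in number 2. Without HAND2, which has no peak, it was -0.145 over the means, 1.64 in number 1 and 0.394 in number 2. That of tiles with any peak was -0.351 and -2.5, and that of the tiles at 20% or more was -3.91 and -5.78. With 7 genes chosen by name these counts are descriptions, and no test sets the genes apart from other regions of like coverage.

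Each DMSO list was then shortened to the covered length of the AC220 list of its number, keeping the peaks of highest -log10 q. Only DMSO peaks were removed, so AC220 minus DMSO could only rise or stay, and the count of lower genes could not grow. With the shortened lists 1 of the 7 genes was lower with AC220 by the mean within 50 kb, and the median difference was 1.32 points. With all 4 lists trimmed to the shortest, none was lower. GATA2 then had 30.34% in DMSO 1, 32.91% in AC220 1, 27.25% in DMSO 2 and 40.2% in AC220 2. The count of genes lower with AC220 over the wide window therefore changed with list length. Tile shares are not given for the trimmed lists, so whether other regions shifted alike was not tested. Directions at single genes changed with the peaks kept as well. With peaks of -log10 q of at least 5, the mean difference within 50 kb was -13.6 points at GATA2, -7.72 at GATA4 and 0.744 at GATA3. These values rested on number 2 alone, since both libraries numbered 1 were then at 0 at all 3 genes. At GATA2 the share was 27.25% in DMSO 2 and 0% in AC220 2, where the peak at the start had a -log10 q of 4.54.

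Within 5 kb the means of GATA4, HAND1 and HAND2 did not differ, since they were at the same bound in all libraries. The difference at GATA3 was -12.2 points in number 1 and 0 in number 2. GATA5 was higher by 19.7 points in number 1 and equal in number 2, a difference that rested on DMSO 1 alone: without that library it was 0. GATA2 differed by 12.7 points in number 1 and by -0.55 in number 2 (71.71% ± 31.72 for DMSO and 77.8% ± 22.33 for AC220, SD, n = 2 each, exact permutation p = 1). GATA6 alone was lower in both numbers, with differences of -0.15 and -4.2 points (62.59% ± 15.93 against 60.42% ± 13.07, SD, n = 2 each, exact permutation p = 0.667). The difference in number 1 rested on a very small shift of 1 peak end, from chr18:19749133 in DMSO 1 to chr18:19749118 in AC220 1. By the mean 2 genes were lower, against 69% of 10 kb tiles with any peak and 70.7% of those at 20% or more. Lower in both numbers was 1 gene, against 26.4% and 38.8% of these tiles. No gene was higher in both, against 10.9% of the tiles at 20% or more. The median over the genes was 0, beside -4.18 and -6.5 points over the same tiles. Within the numbers the gene median was 0 in both, that of tiles with any peak 0 in number 1 and -5.3 in number 2, and that of the tiles at 20% or more -4.3 and -5.77. These medians are limited at the top: a gene at 100% in every library cannot show a gain.

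Domain widths gave the same picture of small differences of mixed sign. The GATA2 domain was 25.6 kb wide in DMSO 1, 23.8 kb in AC220 1, 49.9 kb in DMSO 2 and 55.5 kb in AC220 2, a log2 ratio of AC220 to DMSO of -0.105 in number 1 and 0.152 in number 2. The HAND1 domain was narrower with AC220 in both numbers, at 32.7 and 27.1 kb in number 1 and 62.1 and 61.8 kb in number 2 (mean log2 ratio -0.137, exact permutation p = 0.667, n = 2 each). The GATA6 domain was wider in both, at 12.9 and 13.2 kb in number 1 and 25.6 and 27.4 kb in number 2 (mean log2 ratio 0.062, exact permutation p = 0.667, n = 2 each). The mean log2 ratios of GATA2, GATA3, GATA4 and GATA5 were 0.023, -0.073, 0.008 and 0.014, each with an exact permutation p of 1. By mean log2 width 2 of the 6 domains were narrower, against 61.7% of 59559 tiles of 10 kb reached by a domain in all 4 libraries, and 1 was narrower in both numbers, against 38%. The median log2 ratio was 0.011 over the 6 genes and -0.202 over those tiles. Within the numbers it was -0.070 and 0.051 over the genes and -0.185 and -0.055 over the tiles. The directions at HAND1 and GATA6 depended on joining gaps of at most 3 kb. Unjoined, the widest peak at HAND1 was wider with AC220 in number 1, at 19.2 and 21.3 kb. In number 2 it was narrower, at 30.1 and 29.3 kb. The widest GATA6 peak was narrower with AC220 in both numbers, at 9.32 and 8.12 kb and at 19 and 16.2 kb.

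**Figure D4:**
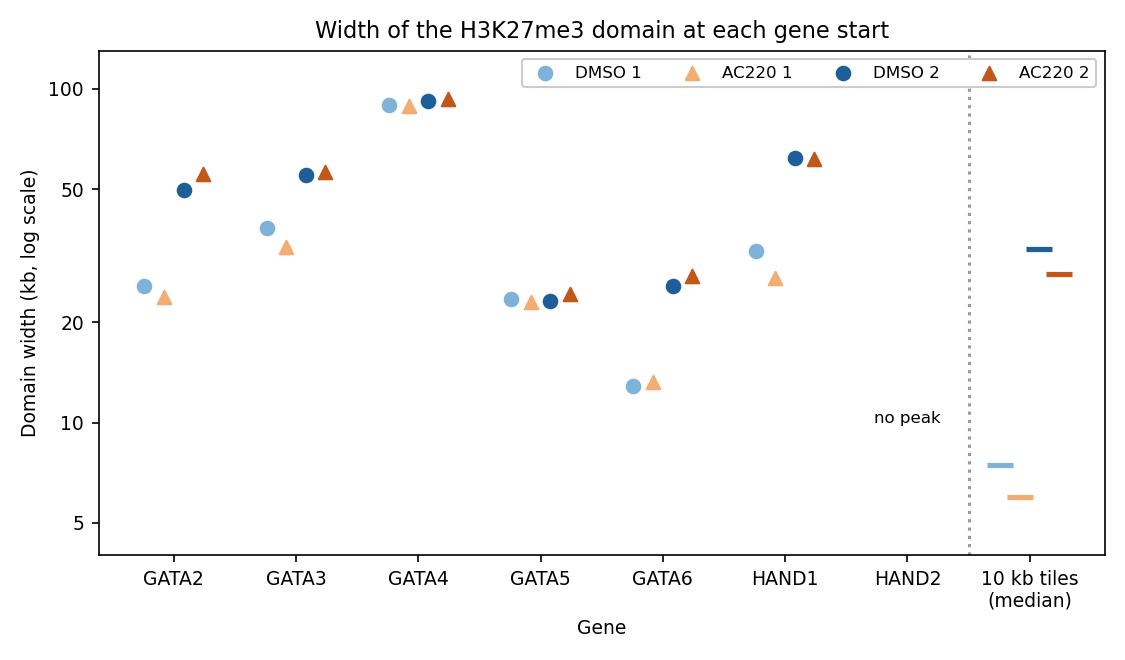
Width in kb, on a log scale, of the H3K27me3 domain at each gene start in the 4 libraries (circles DMSO, triangles AC220, light number 1, dark number 2). Bars at the right give the median domain width over 10 kb tiles reached by a domain in all 4 libraries, 7.48, 5.99, 33.1 and 27.9 kb. With gaps of at most 3 kb joined, GATA4 and GATA5 keep nearly 1 width in all 4 libraries. GATA2, GATA3, GATA6 and HAND1 are wider in number 2.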

How the data were processed

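H3K27me3 immunoprecipitates of MOLM14 cells were analysed through 4 deposited lists of broad peaks, called per library. The submitters' processing notes list BWA 0.7.10-r789 and MACS2 2.1 but no settings. The deposited peak positions are in bp. Per peak, the authors give a fold enrichment (ratio), a p-value and a q-value as -log10, and a score, all relative to the peak's own library. How inputs and Drosophila reads were used in calling peaks is not stated in the labels or lists. No read counts come with the lists, so depth is unknown and no interval that needs it is given. Peak ends on chromosome 1 reach 249236554, which fits within the GRCh37 length of 249250621 (table of circlize 0.4.16).

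Covered shares and joined domains were computed with Python 3.11.15 and numpy 2.4.6, tested on simulated lists, and figures drawn with matplotlib 3.10.9. Background tiles of 10 and 100 kb tile chromosomes 1 to 22 and X, and stretches where reads cannot be placed were not left out. Single genes were compared by a two-sided exact permutation test, which has 6 assignments of 4 libraries to 2 treatments. Nothing in the labels says that libraries came from separate cultures, so p-values measure the spread between libraries, which may be technical. That spread includes the gap in covered length between the numbers. All 7 genes are named, with the widest and the highest-fold peak within 5 kb of each start. The members, lists and tests were chosen with earlier results of these data known. RefSeq names, neighbours, strands and promoters are of GRCh38.p14, and no coordinates were converted. Promoter entries matched 5 of the 7 genes. Partner genes such as GATA1, TAL1 and ZFPM1 were not analysed here. Lists trimmed in length, q limits, window widths, start shifts, joining gaps, left-out libraries and a replicate block were tried as alternatives.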

Additional observations from a re-analysis of the deposited data

How the results depend on the processing

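Of 80 gene differences recomputed under alternatives other than leaving out a library, counting those that differed from 0 as reported, 54 kept their direction. GATA2 minus the median of the others ranged under these alternatives as far as -13.8 and -29.1 points within 5 kb, with starts 1 kb lower and higher, and stayed negative. The count of genes lower with AC220 within 50 kb, 4 as reported, was 1 with DMSO lists trimmed to their AC220 list, 0 with all lists trimmed to the shortest, 1 at a half-width of 25 kb and 2 at 100 kb. The median difference was 1.32 points under both trims, 0.042 at 25 kb and 0.153 at 100 kb. With a replicate block (lower in both numbers) the count was 1 within 50 kb, 1 within 5 kb and 1 for domain width. The labels share only the numbers, so the block is not known to pair the libraries. Within 5 kb the count of lower genes was 1 at a half-width of 2 kb. With peaks of -log10 q of at least 5, 1 gene was covered over at least 50% in every library, 0 domains were narrower and only 1 gene kept a domain in every library; 2 genes were covered when 90% was required. With gaps of at most 10 kb joined, 1 domain was narrower. Without joining 2 were narrower, the count as reported, but GATA6 was among them in place of HAND1. The GATA2 value against the median of the others was -8.82 points at 25 kb, and within 50 kb -1.87 with all lists trimmed and -5.02 at the q limit of 5, against -2.98. The median difference within 50 kb was -0.503 at a -log10 q of at least 2.

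Single genes changed sign as follows. At -log10 q of at least 5, the difference was -47.1 points for GATA2 within 5 kb, and within 50 kb -13.6 for GATA2, 0.744 for GATA3, -7.72 for GATA4 and 0.692 for HAND1; at a limit of 2 it was -0.791 for GATA4 and 2.73 for GATA5. With DMSO lists trimmed it was 3.96 for GATA5, 2.79 for GATA6 and 1.23 for HAND1, and with all lists trimmed 0.139 for GATA3, 3.34 for GATA5, 1.21 for GATA6 and 2.82 for HAND1. At 25 kb it was 0.842 for GATA5, 1.27 for GATA6 and 0.433 for HAND1, at 100 kb 1.03 for GATA5 and 0.416 for HAND1, and with starts 1 kb higher 0.323 for GATA5. The cause of these changes was not tested.

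Leaving out 1 library leaves the numbers unbalanced between treatments, so these values move with the gap between numbers. Over the 4 removals the count of lower genes ranged from 0 to 6 within 50 kb and from 0 to 3 within 5 kb, and that of narrower domains from 0 to 6. Without AC220 1 or without DMSO 2 no gene was lower within 50 kb, and without AC220 1 none was lower within 5 kb. The median difference ranged from -7.66 to 8.39 points within 50 kb and from 0 to 0.035 within 5 kb. Gene differences within 50 kb ranged from -6.78 to 12.7 for GATA2, -15.1 to 10.5 for GATA3, -3.04 to 5.69 for GATA4, -7.66 to 7.4 for GATA5, -11.7 to 10.5 for GATA6 and -13.1 to 12.7 for HAND1. Within 5 kb they ranged from -16.3 to 28.5 for GATA2, -12.2 to 0.035 for GATA3 and -13.4 to 9.09 for GATA6. Unknown depth limits all these values: an uncovered base is one without a called peak, not one shown to lack the mark.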
